A study of Mus musculus with 12 samples.

Results

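The 43 genes described here are a chosen set from the DNA replication machinery of the mouse, and other genes of that machinery lie outside it. They cover origin licensing factors, the MCM helicase and the proteins that activate it, DNA polymerases and primase, and the sliding clamp and its loader. Also covered are factors that bind and join the new strands, enzymes of nucleotide supply, and proteins that restore chromatin and DNA methylation behind the fork. The set also holds E2f1, a transcription factor. The 43 genes were taken by gene symbol and role, with no cut on a measured value, but earlier results of these data were known at the choice. All 43 were found among 55536 genes in the deposited tables. Total RNA was sequenced from 12 mouse liver samples in 3 groups of 4, which differ in the short hairpin RNA (shRNA) delivered by adenovirus: shG0s2 against G0s2, an inhibitor of lipid droplet lipolysis, shRgs16 against Rgs16, a regulator of G protein signalling, and shLacZ against the bacterial lacZ gene as control. All groups were wild-type C57BL/6J mice of 8 weeks on a 12 h light and 12 h dark cycle, and all received 0.1 OD of virus in the tail vein. Livers of every group were collected 12 days later, at zeitgeber time 12, following 6 h without food in the daytime. Every group therefore carried adenovirus and an expressed hairpin, and animals without virus were not analysed here. The hairpins were expressed from a virus rather than from a gene deletion, so the targeted genes were lowered, not removed. Whether the 4 samples of a group are different mice is not stated in the labels, so the p-values rest on a spread between samples that may be technical.

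A cell that is about to divide first loads the MCM helicase, as an inactive double ring, onto origins marked by the origin recognition complex. In S phase, Cdc45 and the GINS complex join the MCM ring to form the active helicase, polymerase alpha with primase starts each strand, and polymerases epsilon and delta extend it with the help of the PCNA clamp. Adult hepatocytes are mostly quiescent and hold little of this machinery, and the liver is known for switching it on when it regenerates after loss of tissue. Many of the genes are known targets of E2F transcription factors, which the retinoblastoma protein family holds inactive in resting cells.

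The libraries held between 18458222 and 27170419 estimated counts, and the shallowest was shG0s2 replicate 2. G0s2 fell by 0.98 on the log2 scale in shG0s2 against shLacZ samples (SE 0.198, edgeR adjusted p = 0.00301) and Rgs16 fell by 2.51 in shRgs16 against shLacZ samples (SE 0.378, edgeR adjusted p = 0.00172). On the deposited TPM scale the shG0s2 and shLacZ samples overlapped for G0s2, at 95.9 ± 26.8 TPM in shG0s2 (60.4 to 124.9) and 115 ± 14.2 TPM in shLacZ samples (101.0 to 134.8; SD, n = 4 each). In the shG0s2 samples, Rgs16 was lower as well, by a log2 fold change of -1.32 (SE 0.244, edgeR adjusted p = 0.00236), whereas G0s2 differed by 0.02 in shRgs16 samples (SE 0.144, edgeR adjusted p = 0.909). The tissue label matched its markers, since 14 of 15 listed hepatocyte markers (the other, Tf, was not analysed here) were present at a summed level of 41507 to 60694 TPM in shG0s2, 57169 to 61977 TPM in shRgs16 and 43462 to 47911 TPM in shLacZ samples. TPM divides a gene's reads by its transcript length and scales every library to the same total, and it is used below to compare one gene with another. CPM is the count relative to a library total that was scaled by the trimmed mean of M values (TMM), and it is used to compare one gene between samples.

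Most of the replication genes were higher in both knockdown groups than in the control livers, and more so in shG0s2 than in shRgs16 livers. In shG0s2 against shLacZ livers, 39 of the 43 genes rose and 2 fell, where 31.3% of all 15592 genes tested rose and 29.2% fell. The median log2 fold change was 1.23 over the 43 genes and 0.01 over all genes tested, and 30 of the 43 rose at least 2-fold. In shRgs16 against shLacZ livers, 29 rose and 3 fell, where 24.6% of 15324 genes tested rose and 24.5% fell. The median there was 0.50 over the 43 genes and 0.01 over all genes tested, and 8 rose at least 2-fold. Calls are from edgeR's quasi-likelihood test at a Benjamini-Hochberg adjusted p under 0.05 over all genes tested, and all 43 genes passed the filter on low counts in every comparison. Every shG0s2 sample lay above every shLacZ sample in 38 of the 43 genes and below in 3, against 27.6% and 28.3% of all genes tested. For shRgs16 and shLacZ samples the counts were 23 above and 2 below, against 21.9% and 23.1% of all genes tested. Both comparisons share the shLacZ samples.

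These increases are relative to the other RNA of each library. With scaling by library size alone, in place of TMM, the median of all genes tested was itself 0.50 higher in shG0s2 and 0.31 higher in shRgs16 livers, 10067 genes rose and 1246 fell in shG0s2 livers, and 7686 rose and 1279 fell in shRgs16 livers, whereas with TMM 4875 rose and 4556 fell in shG0s2 and 3770 rose and 3749 fell in shRgs16 livers. The replication genes' medians with that scaling were 1.72 and 0.80, so they stood above the median of all genes under both scalings.

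**Figure D1:**
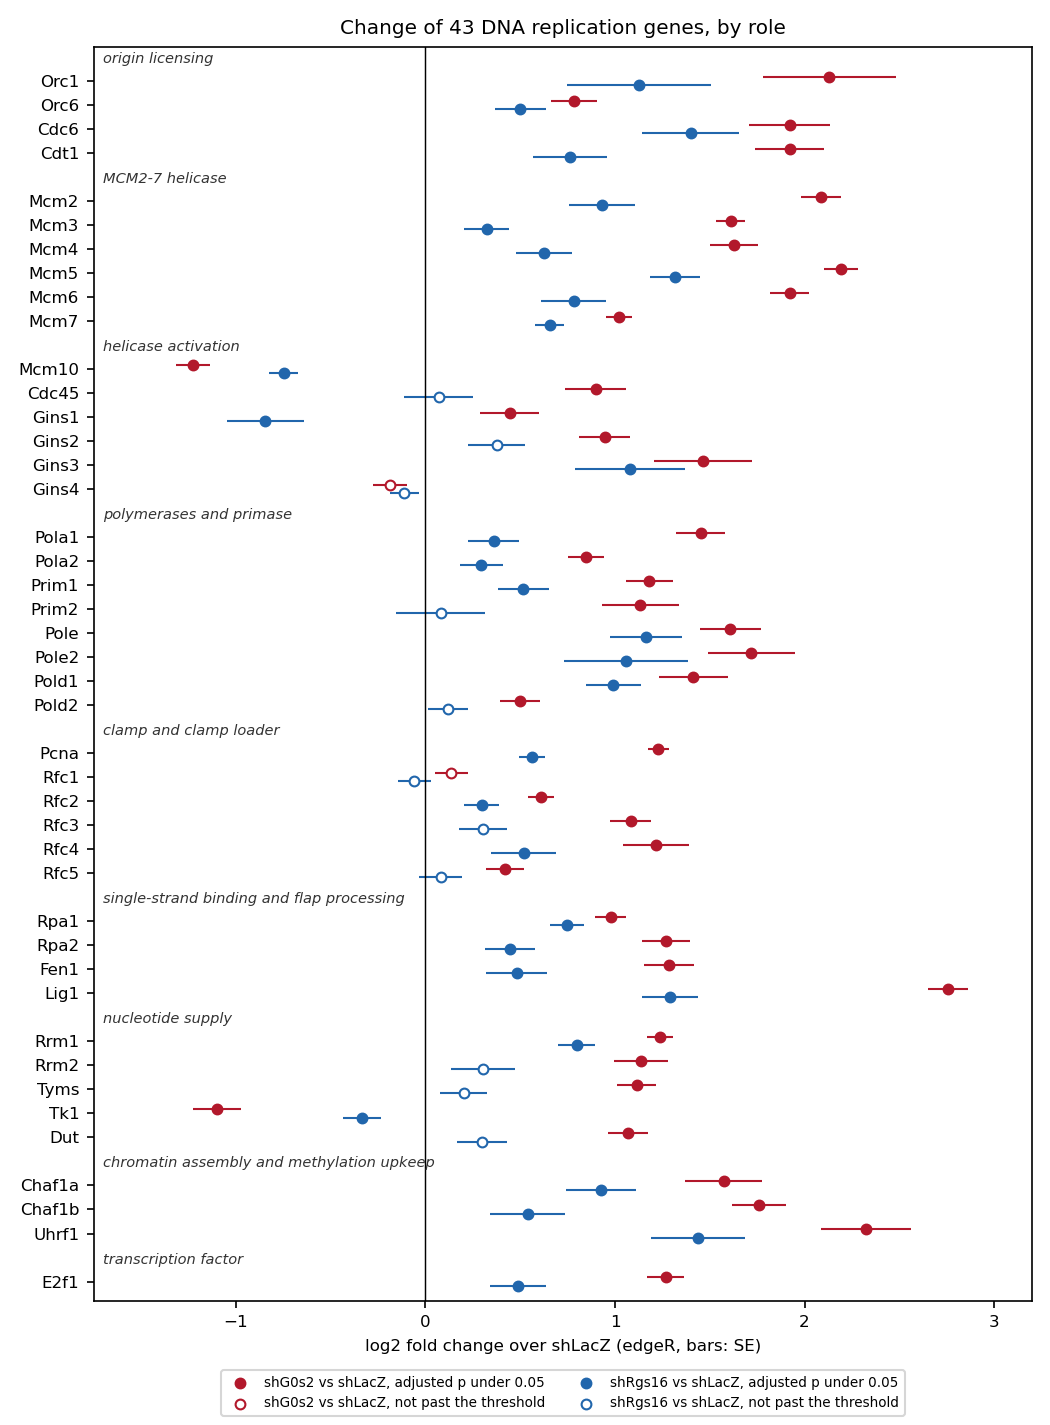
Log2 fold change over shLacZ of each of the 43 genes (x axis, edgeR, bars are standard errors), in shG0s2 livers (red) and shRgs16 livers (blue), with genes down the page grouped by role. Filled points passed an adjusted p of 0.05. Nearly all red points lie to the right of the blue ones, and Mcm10 and Tk1 lie left of zero in both colours with TMM scaling (in deposited TPM the shRgs16 mean of Tk1 lies above shLacZ).

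Markers of several other cell types moved with the same groups. For scale, 31.3% of all genes tested rose and 29.2% fell in shG0s2 against shLacZ livers. In shRgs16 against shLacZ livers the shares were 24.6% and 24.5%. In shG0s2 against shLacZ livers, 14 of 15 Kupffer cell and macrophage markers rose, 13 of 13 stellate cell and fibroblast markers rose, 11 of 14 tested T and NK cell markers rose, and 13 of 14 hepatocyte markers fell relative to the other genes. In shRgs16 against shLacZ livers, 13 of 14 tested macrophage markers, 9 of 13 stellate markers and 12 of 14 tested T and NK cell markers rose, and of 14 hepatocyte markers 2 rose and 8 fell. The summed TPM of the hepatocyte markers was nonetheless higher in every shRgs16 than in every shLacZ sample, by the values above. Alb, the most abundant of them, stood at 28435 to 33571 TPM in shRgs16 and 15806 to 19452 TPM in shLacZ samples. The sum therefore mostly follows Alb and does not stand for the list as a whole. The other lists are given by their counts. In shG0s2 against shLacZ livers 2 of 12 endothelial markers rose and 3 fell, 1 of 7 tested neutrophil, 2 of 8 B and plasma cell and 4 of 8 tested cholangiocyte markers rose, and of 7 erythroid markers 4 rose and 2 fell. In shRgs16 against shLacZ livers 5 of 12 endothelial, 1 of 7 tested neutrophil, 3 of 8 B and plasma cell and 3 of 8 tested cholangiocyte markers rose, and of 6 tested erythroid markers 1 rose and 2 fell. The endothelial, neutrophil and B and plasma cell counts in shG0s2 livers were no more than the shares of all genes. The same holds for the neutrophil count and the erythroid rises in shRgs16 livers. The summed macrophage markers stood at 2172 to 2313 TPM in shG0s2, 1611 to 1938 TPM in shRgs16 and 767 to 875 TPM in shLacZ samples. Stellate markers summed to 540 to 729 TPM in shG0s2, 202 to 335 TPM in shRgs16 and 101 to 134 TPM in shLacZ samples, and T and NK cell markers to 79.3 to 88.3, 63.5 to 90.6 and 14.3 to 35.6 TPM in the same order of groups. Set directly against each other with TMM scaling, the knockdowns differed less in these lists than the TPM sums. In shG0s2 against shRgs16 livers, where 21.0% of all genes tested were higher and 20.5% lower, 3 of 15 macrophage markers were higher and 0 lower. Their median log2 difference was 0.08. Of 14 tested T and NK cell markers 1 was higher and 2 lower, with a median of -0.02. Both lists were thus no more than the shares of all genes. Of 13 stellate markers 9 were higher and 0 lower, with a median of 0.89. No listed marker was at 0 in every sample of a group. In whole liver, a change in the number of cells of a type and a change in RNA per cell cannot be told apart, and the part of these cell types in the rise of the replication genes was not tested.

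Promoter sequence was not used to choose the genes and was compared among them. Promoters from 250 bases before to 50 bases after the start site, from RefSeq on GRCm38.p6, were matched for 36 of the 43 genes. The E2F letters searched, on both strands, were TTTCGCGC, TTTGGCGC, TTTCCCGC and TTTGCCGC, and 14 of the 36 genes (38.9%) held at least 1 of them, where 2.6% of 27025 genes with a promoter in the table did. The letters CCAAT were found in 22 of the 36 (61.1%), against 41.1% of all genes. The cell-cycle homology region letters, TTTGAA or TTTAAA, were found in 9 of the 36 (25%), against 30.6% of all genes. Sites of 7 genes are shown as examples, among them Lig1, Uhrf1 and Mcm5, which rose most in shG0s2 livers. They are written 5′ to 3′ on the strand of the match, with the E2F letters in capitals.
Lig1: cgccacacagaTTTCGCGCgcactttggcg
Uhrf1: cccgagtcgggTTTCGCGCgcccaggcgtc
Mcm5: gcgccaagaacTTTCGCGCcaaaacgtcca
Orc1: aggagaaaactTTTCGCGCcactaaccgaa
Cdc6: accccaggcgaTTTCCCGCtctccaccggc
Pola1: gcgggagtgcaTTTGGCGCcctgtgatgac
Mcm6: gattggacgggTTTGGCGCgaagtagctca
They lie in GRCm38 at chr7:13278841-13278870 on the minus strand for Lig1, chr17:56304117-56304146 on the plus strand for Uhrf1, chr8:75109345-75109374 on the plus strand for Mcm5, chr4:108579416-108579445 on the minus strand for Orc1, chr11:98908002-98908031 on the minus strand for Cdc6, chrX:93632275-93632304 on the plus strand for Pola1 and chr1:128359734-128359763 on the minus strand for Mcm6. The match of Mcm6 begins 47 bases before its start site and that of Orc1 27 bases before. That of Lig1 begins 26 bases after the start site of its window. Lig1 and Uhrf1 each had further windows without the letters. Mcm2, which rose by 2.09 in shG0s2 livers, held none in its window.

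Mcm6 held 3 matches, of which a pair overlap on opposite strands, and Mcm10, which fell, held none in its window. The 120 bases before each start site are set side by side as single examples that do not stand for the other genes. They are given on the strand of the gene, with letters of E2F matches on either strand in capitals.
Mcm6: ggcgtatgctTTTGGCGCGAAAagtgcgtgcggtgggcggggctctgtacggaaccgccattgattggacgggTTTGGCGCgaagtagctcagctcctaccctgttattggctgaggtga
Mcm10: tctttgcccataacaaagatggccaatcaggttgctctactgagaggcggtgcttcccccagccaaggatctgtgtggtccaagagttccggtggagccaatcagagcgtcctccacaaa
The stretches are chr1:128359706-128359825 for Mcm6 and chr2:5012792-5012911 for Mcm10, both on the minus strand. The 14 genes with E2F letters had a median log2 fold change of 1.82 in shG0s2 against shLacZ livers (range 1.02 to 2.76), and the 22 without them 1.13 (range -1.23 to 2.09). In shRgs16 against shLacZ livers the medians were 1.02 for the 14 (range 0.30 to 1.44) and 0.46 for the 22 (range -0.75 to 0.93). The ranges of the 2 sets overlapped in both comparisons, and no test was made of this difference. Of the 22 genes without the letters, all but Mcm10, Tk1 and Rfc1 rose in shG0s2 livers. A match of letters is no evidence that a factor binds there, and a window without them says nothing of the factor.

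The 4 origin licensing genes rose in both knockdowns, where 31.3% (shG0s2) and 24.6% (shRgs16) of all genes tested rose. Cdt1, which brings the MCM ring to origins, stood at 16.5, 17.4, 15.2 and 19.1 CPM in shG0s2 livers, 8.86, 7.38, 6.92 and 7.83 CPM in shRgs16 livers, and 6.71, 3.11, 4.30 and 4.16 CPM in shLacZ livers. All 4 shG0s2 samples lay far above the other groups, and the lowest shRgs16 sample lay just above the highest control. The log2 fold changes were 1.92 (SE 0.183, edgeR adjusted p = 5.33e-06) in shG0s2 and 0.76 (SE 0.194, edgeR adjusted p = 0.00657) in shRgs16 livers.

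Cdc6, the ATPase that loads the MCM ring together with Cdt1, had 3.02, 2.51, 2.46 and 2.42 CPM in shG0s2, 1.97, 2.25, 1.33 and 1.79 CPM in shRgs16, and 0.563, 0.707, 0.886 and 0.615 CPM in shLacZ livers. The 3 groups did not overlap, and Cdc6 had the second largest rise of the 43 genes in shRgs16 livers, at 1.40 (SE 0.256, edgeR adjusted p = 0.000786), beside 1.92 (SE 0.213, edgeR adjusted p = 9.51e-06) in shG0s2 livers. Orc6, the smallest subunit of the origin recognition complex, was at 6.00, 5.80, 6.23 and 6.68 CPM in shG0s2, 5.49, 5.67, 4.57 and 4.85 CPM in shRgs16, and 3.99, 3.77, 3.37 and 3.45 CPM in shLacZ livers. It rose by 0.79 (SE 0.121) and 0.50 (SE 0.134) in the 2 knockdowns, with the groups again apart. Orc1, the subunit that recruits Cdc6 to origins, was the least abundant of the 43 genes, at 1.07 ± 0.171 CPM in shG0s2, 0.539 ± 0.0434 CPM in shRgs16 and 0.244 ± 0.112 CPM in shLacZ livers (SD, n = 4 each). Its log2 fold changes were 2.13 (SE 0.351) and 1.13 (SE 0.380), and the shRgs16 call was lost with DESeq2, without a filter on low counts, or without any one of shLacZ replicates 2 and 3 and shRgs16 replicates 3 and 4, at log2 fold changes of 0.87 to 1.12 without one of those samples.

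All 6 subunits of the MCM ring, the motor of the replicative helicase, rose in both knockdowns, with log2 fold changes of 1.02 to 2.19 in shG0s2 and 0.32 to 1.31 in shRgs16 livers. Mcm6 was at 82.4, 80.7, 76.8 and 81.5 CPM in shG0s2, 37.9, 45.2, 26.7 and 38.1 CPM in shRgs16, and 18.5, 19.9, 20.6 and 27.2 CPM in shLacZ livers. The shG0s2 samples stood well apart, while shRgs16 replicate 3 fell just under the highest control, shLacZ replicate 4. Mcm6 rose by 1.92 (SE 0.103, edgeR adjusted p = 5.73e-08) in shG0s2 and by 0.78 (SE 0.173, edgeR adjusted p = 0.00530) in shRgs16 livers.

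Mcm5 had 25.9, 26.8, 30.3 and 29.6 CPM in shG0s2, 16, 18.6, 12 and 15.7 CPM in shRgs16, and 6.52, 5.56, 6.65 and 6.34 CPM in shLacZ livers. It showed the largest change of the ring in both comparisons, at 2.19 (SE 0.0900, edgeR adjusted p = 7.47e-09) and 1.31 (SE 0.132, edgeR adjusted p = 1.18e-05), and its groups did not overlap. Mcm7, in contrast, had the smallest change of the ring in shG0s2 livers, with 28.4, 30.4, 27.4 and 30.0 CPM in shG0s2, 21.9, 24.7, 21.4 and 23.5 CPM in shRgs16, and 13.5, 14.7, 14.8 and 15.2 CPM in shLacZ livers. Its log2 fold changes were 1.02 (SE 0.0698) in shG0s2 and 0.66 (SE 0.0761) in shRgs16 livers, with the groups apart.

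Mcm3 showed the largest difference between the knockdowns among the ring subunits. It was at 27.7, 26.3, 27.0 and 29.6 CPM in shG0s2, 10.3, 14.2, 10.9 and 10.6 CPM in shRgs16, and 9.33, 9.52, 9.53 and 8.42 CPM in shLacZ livers, so that the shRgs16 samples lay close above the controls. It rose by 1.61 (SE 0.0759) in shG0s2 and by 0.32 (SE 0.117, edgeR adjusted p = 0.0374) in shRgs16 livers, where the call was lost without any one of the 4 shLacZ samples or without shRgs16 replicate 2, at 0.20 to 0.34. Mcm2 and Mcm4 rose by 2.09 (SE 0.107) and 1.63 (SE 0.126) in shG0s2 and by 0.93 (SE 0.175) and 0.63 (SE 0.149) in shRgs16 livers.

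Per transcript length, the 6 subunits summed to 141 ± 10.4 TPM in shG0s2, 61.1 ± 9.89 TPM in shRgs16 and 27.7 ± 3.24 TPM in shLacZ livers (SD, n = 4 each), and the groups did not overlap. Relative to shLacZ livers, the knockdowns stood further off in TPM than in CPM. Mcm6 averaged 46.3, 17.4 and 7.39 TPM, and 80.4, 37.0 and 21.5 CPM, in the same order of groups. Although the ring holds each subunit once, their transcript levels were unequal. The highest subunit exceeded the lowest by 3.36 to 3.74 times in shG0s2, 3.08 to 3.38 times in shRgs16 and 2.91 to 4.34 times in shLacZ samples. Mcm6 was highest in all 4 shG0s2 samples, and Mcm7 in shLacZ replicates 1, 2 and 3.

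**Figure D2:**
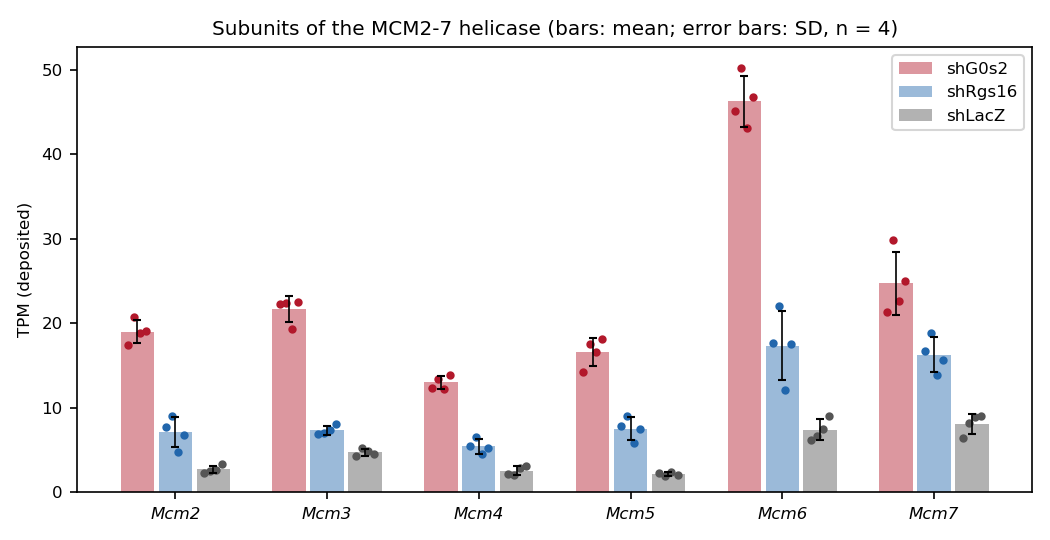
Deposited TPM (y axis) of the 6 MCM ring subunits in shG0s2 (red), shRgs16 (blue) and shLacZ (grey) livers, with a point for each sample, bars for the mean and error bars for the SD (n = 4). Each subunit steps down through the groups in that order, and Mcm6 stands out in shG0s2 livers at 43.1 to 50.2 TPM.

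The helicase activation genes did not share a direction. Mcm10, which helps turn the loaded MCM ring into a moving fork, fell in both knockdowns. Its levels were 33.7, 34.5, 42.1 and 40.2 CPM in shG0s2, 57.6, 50.2, 57.2 and 48.2 CPM in shRgs16, and 88.9, 81.5, 88.3 and 99.9 CPM in shLacZ livers. The 3 groups did not overlap, in the reverse order of the other MCM genes. It fell by 1.23 on the log2 scale in shG0s2 (SE 0.0883, edgeR adjusted p = 3.52e-07) and by 0.75 in shRgs16 livers (SE 0.0771, edgeR adjusted p = 1.42e-05). The gene lies at chr2:4989714-5012791 on the minus strand of GRCm38 (GENCODE M21), and no gene of at least 1 TPM overlapped it there.

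Gins4, one of the 4 subunits of the GINS complex that ties Cdc45 to the MCM ring, was at 17.8, 17.0, 13.9 and 17.5 CPM in shG0s2, 17.4, 16.6, 18.5 and 18.4 CPM in shRgs16, and 17.8, 21.0, 18.4 and 19.5 CPM in shLacZ livers. The highest shG0s2 sample lay just under the lowest control, the shRgs16 samples ran into the controls, and neither difference passed the threshold, at -0.19 (SE 0.0916, edgeR adjusted p = 0.0954) in shG0s2 and -0.11 (SE 0.0773, edgeR adjusted p = 0.256) in shRgs16 livers. With scaling by library size alone the differences were on the other side of zero, at 0.30 in shG0s2 livers, which passed the threshold as a rise, and at 0.19 in shRgs16 livers, which did not. Gins1 went in opposite directions in the knockdowns, with 4.19, 3.46, 3.94 and 3.94 CPM in shG0s2, 1.83, 1.89, 1.52 and 1.19 CPM in shRgs16, and 3.05, 2.54, 2.48 and 3.55 CPM in shLacZ livers. All shRgs16 samples lay below all controls, while shG0s2 replicate 2 lay below the highest control. Gins1 rose by 0.44 in shG0s2 (SE 0.157, edgeR adjusted p = 0.0274) and fell by 0.84 in shRgs16 livers (SE 0.205, edgeR adjusted p = 0.00490). The rise was lost without any one of shG0s2 replicates 1, 3 and 4 or shLacZ replicates 2 and 3, at 0.38 to 0.44.

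Cdc45, the partner of GINS in the active helicase, had 7.67, 8.09, 6.47 and 7.80 CPM in shG0s2, 4.05, 5.16, 3.71 and 4.21 CPM in shRgs16, and 5.16, 4.24, 4.08 and 2.89 CPM in shLacZ livers. The shG0s2 samples lay above all others, and the shRgs16 samples lay within the spread of the controls. It rose by 0.90 in shG0s2 livers (SE 0.160, edgeR adjusted p = 0.000416) and differed by 0.07 in shRgs16 livers (SE 0.182, edgeR adjusted p = 0.775), a difference that turned to -0.067 without shLacZ replicate 4 and to -0.033 without shRgs16 replicate 2. Gins2 rose by 0.95 (SE 0.135) in shG0s2 and differed by 0.38 (SE 0.150, edgeR adjusted p = 0.0572) in shRgs16 livers, and Gins3 rose by 1.46 (SE 0.259) and 1.08 (SE 0.289). In shRgs16 livers Gins2 passed the threshold with DESeq2, with all 12 samples in the model, with library size alone, and without shLacZ replicate 3 or shRgs16 replicate 3, at 0.45 without either sample.

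The 8 polymerase and primase genes all rose in shG0s2 livers, by 0.50 to 1.72 on the log2 scale, and 6 of them rose in shRgs16 livers. Of all genes tested, 31.3% and 24.6% rose in the 2 knockdowns. Pola1, the catalytic subunit of polymerase alpha, was at 16.9, 15.1, 15.9 and 13.6 CPM in shG0s2, 7.46, 7.74, 7.19 and 6.88 CPM in shRgs16, and 4.69, 7.07, 5.80 and 5.25 CPM in shLacZ livers. Its partner Pola2, the accessory subunit, was at 14.3, 13.9, 13.8 and 13.3 CPM in shG0s2, 9.58, 9.34, 8.60 and 10.7 CPM in shRgs16, and 8.68, 8.06, 6.69 and 7.81 CPM in shLacZ livers. In both genes the shG0s2 samples were separate, and shRgs16 samples ran into the upper controls. Pola1 rose by 1.45 (SE 0.128, edgeR adjusted p = 1.54e-06) and 0.36 (SE 0.135, edgeR adjusted p = 0.0432) in the 2 knockdowns, and Pola2 by 0.85 (SE 0.0957) and 0.29 (SE 0.113). Both shRgs16 calls were thin. They were lost without a filter on low counts, and that of Pola1 was lost without any one of 7 of the 8 samples, all but shLacZ replicate 2, at 0.27 to 0.39. That of Pola2 was lost without any one of shLacZ replicates 2, 3 and 4 or shRgs16 replicates 1, 2 and 4, at 0.22 to 0.31.

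Of the primase subunits, Prim1, which makes the RNA primer, rose by 1.18 (SE 0.126) in shG0s2 and 0.52 (SE 0.135) in shRgs16 livers. Prim2, the larger subunit, rose by 1.13 (SE 0.205) in shG0s2 livers and differed by 0.08 (SE 0.234, edgeR adjusted p = 0.8) in shRgs16 livers, where it was -0.032 without shLacZ replicate 1 and -0.016 without shRgs16 replicate 2. Pole and Pole2, of the leading strand polymerase epsilon, rose by 1.61 (SE 0.161) and 1.72 (SE 0.230) in shG0s2 and by 1.16 (SE 0.19) and 1.06 (SE 0.326) in shRgs16 livers. The shRgs16 call of Pole2 was lost without shRgs16 replicate 1 or 2, at 0.88 to 0.96. For the lagging strand polymerase delta, the catalytic gene Pold1 rose by 1.41 (SE 0.182) and 0.99 (SE 0.145). Its partner Pold2 rose by 0.50 (SE 0.105) in shG0s2 livers and differed by 0.12 (SE 0.105, edgeR adjusted p = 0.379) in shRgs16 livers.

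Pcna, the ring-shaped clamp that holds polymerases on DNA, had 66.6, 68.2, 62.2 and 65.9 CPM in shG0s2, 40.5, 46.1, 38.0 and 43.4 CPM in shRgs16, and 28.6, 28.7, 27.7 and 29.1 CPM in shLacZ livers. The control samples were close together and all 3 groups were far apart. It rose by 1.23 in shG0s2 (SE 0.0551, edgeR adjusted p = 1.56e-08) and by 0.56 in shRgs16 livers (SE 0.0695, edgeR adjusted p = 5.02e-05).

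The loader that opens the clamp did not follow it evenly. Rfc1, its large subunit, was at 40.7, 39.7, 39.3 and 35.0 CPM in shG0s2, 34, 37.9, 33.1 and 32.1 CPM in shRgs16, and 32.5, 35.5, 33.2 and 41.8 CPM in shLacZ livers. The 3 groups overlapped, and the differences were 0.14 (SE 0.0864, edgeR adjusted p = 0.193) in shG0s2 and -0.06 (SE 0.0879, edgeR adjusted p = 0.608) in shRgs16 livers. Without shLacZ replicate 4, the highest control, Rfc1 passed the threshold in shG0s2 livers at 0.23 and turned to 0.023 in shRgs16 livers. With library size alone it passed the threshold at 0.63 and 0.25. Rfc5, a small subunit, was at 10.8, 11.9, 11.2 and 11.2 CPM in shG0s2, 8.75, 10.1, 8.02 and 9.34 CPM in shRgs16, and 8.35, 8.53, 7.62 and 9.80 CPM in shLacZ livers, with shG0s2 samples apart and shRgs16 samples among the controls. It rose by 0.42 (SE 0.0992, edgeR adjusted p = 0.00297) in shG0s2 and differed by 0.08 (SE 0.114, edgeR adjusted p = 0.589) in shRgs16 livers.

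The other small subunits, Rfc2, Rfc3 and Rfc4, rose by 0.61 (SE 0.0683), 1.08 (SE 0.109) and 1.21 (SE 0.174) in shG0s2 livers. In shRgs16 livers Rfc2 rose by 0.30 (SE 0.0901) and Rfc4 by 0.52 (SE 0.171), while Rfc3 differed by 0.30 (SE 0.126, edgeR adjusted p = 0.0635) with groups that did not overlap. Rfc3 passed the threshold there with all 12 samples in the model, with library size alone, and without shRgs16 replicate 3, at 0.36. The shRgs16 call of Rfc2 was lost without shLacZ replicate 2 or shRgs16 replicate 4, at 0.21 to 0.26. That of Rfc4 was lost without a filter on low counts, and without any one of shLacZ replicates 1, 2 and 3 or shRgs16 replicates 1 and 2, at 0.43 to 0.52.

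Lig1, the ligase that seals Okazaki fragments on the lagging strand, showed the largest rise of the 43 genes in shG0s2 livers. It lies at chr7:13277283-13311433 on the plus strand of GRCm38, and its promoter site is printed above. It had 34.3, 32.0, 26.3 and 31.3 CPM in shG0s2, 11.8, 13.9, 8.76 and 11 CPM in shRgs16, and 5.30, 4.29, 4.17 and 4.87 CPM in shLacZ livers. The groups were separate, and the lowest shG0s2 sample stood well above the highest shRgs16 sample. The log2 fold changes were 2.76 (SE 0.106, edgeR adjusted p = 4.68e-09) in shG0s2, a 6.76-fold rise, and 1.29 (SE 0.149, edgeR adjusted p = 3.09e-05) in shRgs16 livers.

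Rpa1, the large subunit of the protein that coats single-stranded DNA, rose in both knockdowns. Its levels were 100.5, 91.0, 75.7 and 85.9 CPM in shG0s2, 71.4, 91.8, 68.7 and 73.8 CPM in shRgs16, and 43.4, 43.2, 49.7 and 45.9 CPM in shLacZ livers. The knockdown groups overlapped each other and both lay above the controls, with rises of 0.98 (SE 0.0815, edgeR adjusted p = 1.04e-06) and 0.75 (SE 0.0904, edgeR adjusted p = 4.56e-05) and a direct difference of 0.22 (SE 0.0946, edgeR adjusted p = 0.0808). That direct difference passed the threshold without shG0s2 replicate 3 or shRgs16 replicate 2, at 0.27 to 0.32. Its partner Rpa2 rose by 1.27 (SE 0.127) and 0.45 (SE 0.133), and Fen1, the nuclease that trims flaps before ligation, by 1.29 (SE 0.132) and 0.48 (SE 0.163). The shRgs16 call of Rpa2 was lost without shLacZ replicate 2, at 0.38, and that of Fen1 without any one of shLacZ replicates 1 and 2 or shRgs16 replicates 2 and 4, at 0.37 to 0.48.

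In nucleotide supply, 4 of 5 genes rose and Tk1 fell in shG0s2 livers, where 31.3% of all genes tested rose and 29.2% fell. In shRgs16 livers Rrm1 alone rose, Tk1 fell and 3 did not pass the threshold. That is no more than the shares of all genes tested there, of which 24.6% rose and 24.5% fell. Rrm1, the large subunit of ribonucleotide reductase, was at 59.5, 54.5, 56.4 and 55.6 CPM in shG0s2, 45.5, 48.9, 37.0 and 38.1 CPM in shRgs16, and 23.7, 24.9, 22.3 and 26.7 CPM in shLacZ livers. The 3 groups were separate, and it rose by 1.24 (SE 0.0684, edgeR adjusted p = 5.62e-08) and 0.80 (SE 0.0973, edgeR adjusted p = 4.52e-05). Tk1, the cytosolic thymidine kinase of the salvage pathway, was at 24.3, 15.9, 23.4 and 17.9 CPM in shG0s2, 33.4, 34.2, 43.3 and 30.1 CPM in shRgs16, and 45.9, 45.2, 46.3 and 40.4 CPM in shLacZ livers. All shG0s2 samples lay below all others, and shRgs16 replicate 3 reached into the controls.

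Tk1 fell by 1.10 on the log2 scale in shG0s2 (SE 0.125, edgeR adjusted p = 2.27e-05) and by 0.33 in shRgs16 livers (SE 0.0993, edgeR adjusted p = 0.0153). The shRgs16 call was lost with all 12 samples in the model, at -0.33, and with scaling by library size alone, at -0.036. In deposited TPM, Tk1 was at 19.5 ± 3.50 in shG0s2, 29.4 ± 4.92 in shRgs16 and 26.2 ± 2.45 in shLacZ livers (SD, n = 4 each), so on that scale the shRgs16 mean lay above the control. The gene lies at chr11:117815526-117826092 on the minus strand of GRCm38 and overlaps 169 bases of Afmid, an enzyme gene of tryptophan breakdown on the opposite strand. Afmid stood at 72.2 TPM in shLacZ livers, against 26.2 TPM for Tk1, and fell by 1.60 (SE 0.107) in shG0s2 and by 0.61 (SE 0.0879) in shRgs16 livers. Whether the counting used strand is not given in the sources used here, so reads of the 2 genes may be mixed in that stretch, and its part in the fall of Tk1 was not tested.

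The small subunit of the reductase, Rrm2, rose by 1.14 (SE 0.142) in shG0s2 livers and differed by 0.31 (SE 0.168, edgeR adjusted p = 0.158) in shRgs16 livers. Tyms, which makes thymidylate, rose by 1.11 (SE 0.105) and differed by 0.20 (SE 0.124, edgeR adjusted p = 0.199), and Dut, which clears dUTP, rose by 1.07 (SE 0.106) and differed by 0.30 (SE 0.132, edgeR adjusted p = 0.0766). In shRgs16 livers, Rrm2 passed the threshold at 0.43 without shLacZ replicate 3, Tyms at 0.31 without shLacZ replicate 4 and Dut at 0.38 without shRgs16 replicate 3, and all 3 passed it with library size alone. Each was higher in shG0s2 than in shRgs16 livers in the direct test, by 0.82 (SE 0.147), 0.90 (SE 0.101) and 0.76 (SE 0.120).

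**Figure D3:**
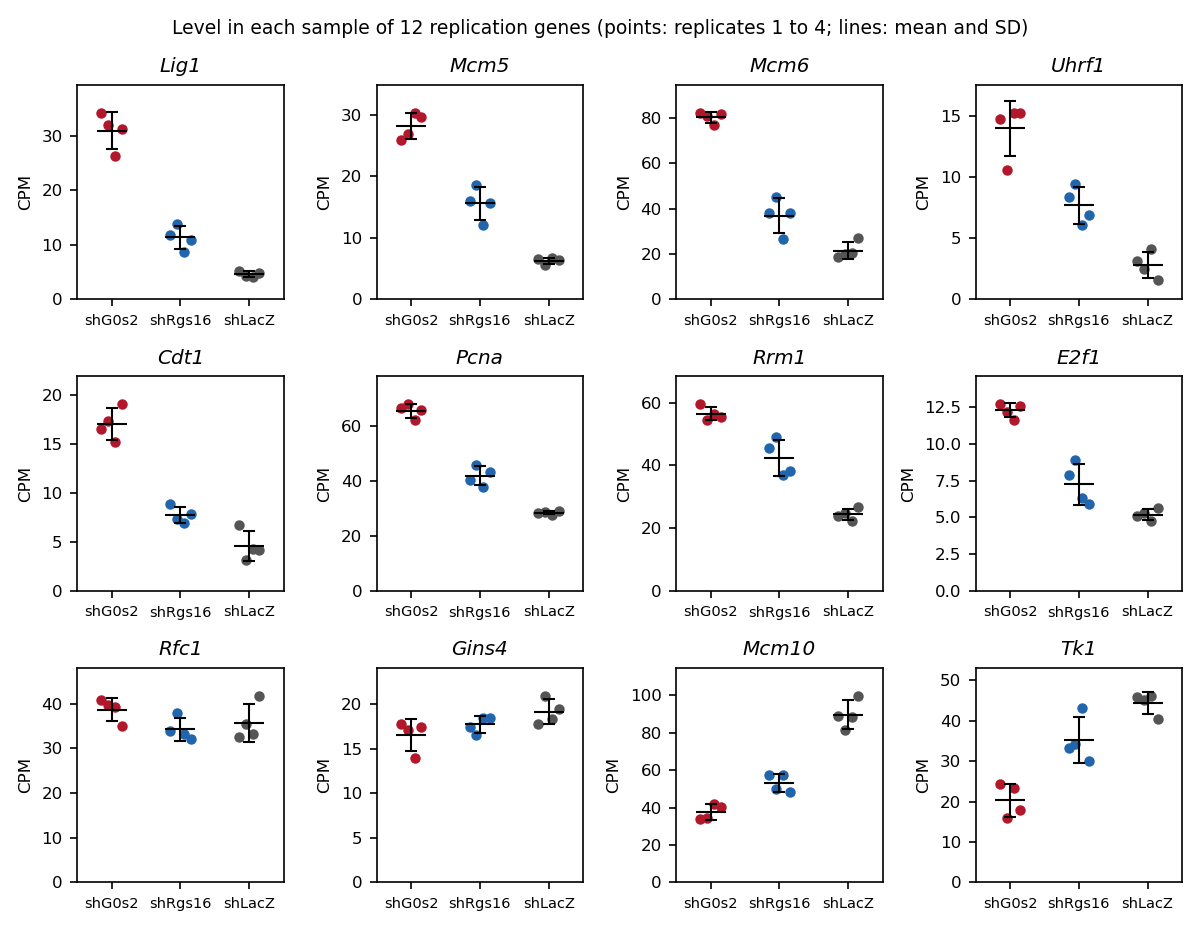
Level in CPM (y axis, from 0) of 12 of the genes in each of the 4 samples of shG0s2 (red), shRgs16 (blue) and shLacZ (grey), with lines for the mean and SD. Lig1, Mcm5, Pcna and the others of the upper 2 rows step down through the groups, Rfc1 and Gins4 overlap, and Mcm10 and Tk1 step up.

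Uhrf1, which recruits the maintenance DNA methyltransferase to newly copied DNA, had 14.8, 10.6, 15.3 and 15.3 CPM in shG0s2, 8.39, 9.48, 6.10 and 6.88 CPM in shRgs16, and 3.19, 2.5, 4.12 and 1.56 CPM in shLacZ livers. The groups did not overlap, though shG0s2 replicate 2 came close to the highest shRgs16 sample. Its rise of 1.44 (SE 0.249, edgeR adjusted p = 0.000732) was the largest of the 43 genes in shRgs16 livers, beside 2.32 (SE 0.237, edgeR adjusted p = 1.50e-05) in shG0s2 livers. Chaf1a, the large subunit of the chromatin assembly factor that deposits histones behind the fork, was at 18.6, 14.2, 12.7 and 13.7 CPM in shG0s2, 9.93, 10.1, 9.19 and 9.19 CPM in shRgs16, and 5.25, 5, 6.87 and 3.08 CPM in shLacZ livers. Again the groups were apart, with rises of 1.57 (SE 0.204) and 0.93 (SE 0.184). Chaf1b, the middle subunit, rose by 1.76 (SE 0.142) and 0.54 (SE 0.197), and its shRgs16 call was lost without any one of shLacZ replicates 1 and 2 or shRgs16 replicates 1, 2 and 4, at 0.41 to 0.56.

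E2f1, an activator among the E2F transcription factors, was at 12.7, 12.2, 11.6 and 12.6 CPM in shG0s2, 7.85, 8.90, 6.30 and 5.88 CPM in shRgs16, and 5.07, 5.28, 4.74 and 5.63 CPM in shLacZ livers. The groups were separate, with the lowest shRgs16 sample just over the highest control. It rose by 1.27 in shG0s2 (SE 0.0959, edgeR adjusted p = 4.91e-07) and by 0.49 in shRgs16 livers (SE 0.148, edgeR adjusted p = 0.0168), where the call was lost without shRgs16 replicate 1 or 2, at 0.37 to 0.45.

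Set directly against each other, shG0s2 livers had more of most replication genes than shRgs16 livers. In that test, 36 of the 43 genes were higher and 2 lower in shG0s2, where 21.0% of 16018 genes tested were higher and 20.5% lower. Every shG0s2 sample lay above every shRgs16 sample in 35 of the 43 genes and below in 2, against 19.8% and 20.0% of all genes tested. The median log2 difference was 0.68 over the 43 genes and 0.01 over all genes tested. Lig1 differed most, by 1.45 (SE 0.120, edgeR adjusted p = 3.21e-07), then Mcm3 by 1.28 (SE 0.0957, edgeR adjusted p = 1.38e-07) and Gins1 by 1.28 (SE 0.175, edgeR adjusted p = 3.47e-05). Mcm10 and Tk1 were the lower genes, at -0.49 (SE 0.0871, edgeR adjusted p = 0.000340) and -0.78 (SE 0.136, edgeR adjusted p = 0.000522).

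The 5 genes that did not pass in that test were Orc6 at 0.27 (SE 0.115), Gins3 at 0.37 (SE 0.236), Gins4 at -0.09 (SE 0.0849), Rfc1 at 0.18 (SE 0.0827) and Rpa1 at 0.22 (SE 0.0946). Besides Rpa1, Rfc1 passed without shLacZ replicate 4 or shRgs16 replicate 2, at 0.18 to 0.23, and Orc6, Rfc1 and Rpa1 passed with library size alone. The calls of Cdc6 at 0.51 (SE 0.193), Pole at 0.43 (SE 0.166), Pole2 at 0.65 (SE 0.25) and Pold1 at 0.41 (SE 0.153) were lost without any one of 7 or more of the 12 samples. Their values without one of those samples were 0.38 to 0.54, 0.34 to 0.45, 0.44 to 0.70 and 0.33 to 0.43. That of Rfc5, at 0.33 (SE 0.0986), was lost without shRgs16 replicate 3, at 0.27. Over the group means in CPM, 38 of the 43 genes ran in the order shG0s2, shRgs16, shLacZ, highest first, and 3 (Gins4, Mcm10 and Tk1) ran in the reverse order.

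The spread among samples was small in shG0s2 and wider in shRgs16 livers. Measured as the median over the 43 genes of log2 CPM minus the shLacZ mean, the shG0s2 samples stood at 1.11 to 1.22, the shRgs16 samples at 0.28 to 0.63, and the shLacZ samples at -0.02 to 0.06. Among shRgs16 samples, replicate 2 was the highest in 31 of the 43 genes and replicate 3 the lowest in 29. The same replicate 3 had the lowest summed stellate and fibroblast markers of its group, 202 TPM against 249 to 335 TPM in the others, and replicate 2 the highest T and NK cell markers, 90.6 TPM against 63.5 to 74.7 TPM. Replicate 3 was also lowest for erythroid markers, 676 TPM against 1346 to 1763 TPM, and for neutrophil markers, 71.4 TPM against 133 to 183 TPM, and replicate 2 highest for macrophage markers, at 1938 TPM, and erythroid markers, at 1763 TPM. The lists did not all follow this order. Replicate 1 was lowest for macrophage markers, at 1611 TPM, and T and NK cell markers, at 63.5 TPM, and highest for stellate markers, at 335 TPM. Replicate 4 was highest for neutrophil markers, at 183 TPM, and replicate 3 for B and plasma cell markers, at 26.0 TPM. For endothelial markers replicate 4 was lowest, at 215 TPM, and replicate 2 highest, at 293 TPM. Hepatocyte markers were highest in replicate 2, at 61977 TPM, and lowest in replicate 1, at 57169 TPM. Cholangiocyte markers were highest in replicate 1, at 248 TPM, and lowest in replicate 3, at 149 TPM. The part of these cell types in the spread was not tested. Without shRgs16 replicate 2 the median log2 fold change of the 43 genes over shLacZ was 0.43, and without replicate 3 it was 0.55. Leaving out 1 sample at a time moved the number of genes that rose between 21 and 30 in shRgs16 and between 38 and 40 in shG0s2 livers.

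**Figure D4:**
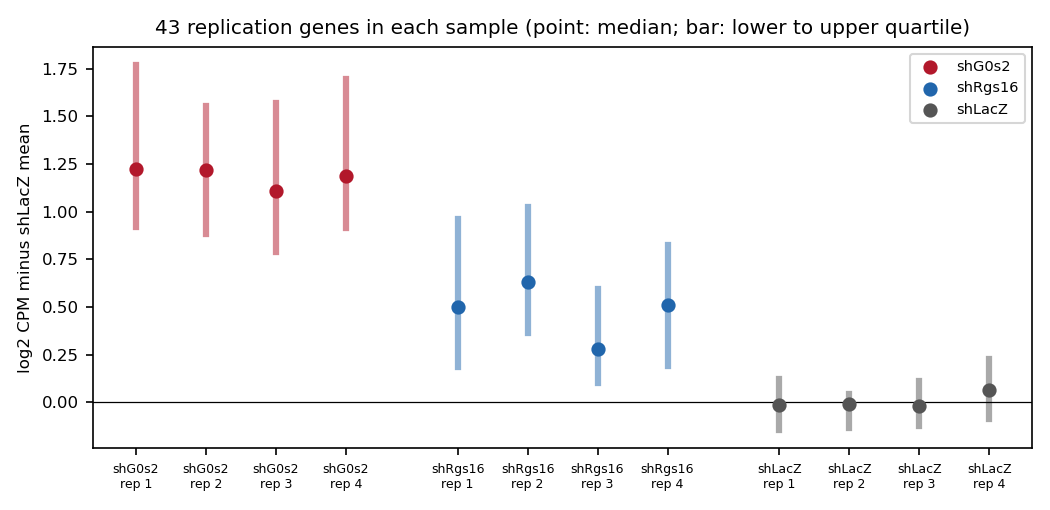
Median (point) and lower to upper quartile (bar) over the 43 genes of log2 CPM minus the shLacZ mean (y axis), for each of 4 samples of shG0s2 (red), shRgs16 (blue) and shLacZ (grey). The shG0s2 points lie at 1.11 to 1.22, above every shRgs16 point, and the shRgs16 points spread over 0.28 to 0.63.

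Per transcript length, the control livers held unequal amounts of these transcripts. Mcm10 was the most abundant at 71.3 ± 4.93 TPM, then Tk1 at 26.2 ± 2.45, Rpa1 at 23.7 ± 1.58, Pcna at 21.5 ± 0.441 and Gins4 at 16.6 ± 1.17 TPM (SD, n = 4 each). The samples of Tk1 and Rpa1 overlapped, the highest Pcna sample at 22.1 TPM lay just under the lowest Rpa1 sample at 22.3 TPM, and Mcm10 stood clear of all of them. Rfc2 followed Gins4 closely at 16.1 ± 2.69 TPM. At the low end, Gins3 was at 0.325 ± 0.126 and Orc1 at 0.0850 ± 0.0379 TPM. The sum over the 43 genes was 769 ± 50.8 TPM in shG0s2, 465 ± 47.6 TPM in shRgs16 and 298 ± 9.79 TPM in shLacZ livers. In CPM the groups were closer relative to control, with sums of 893 to 958 in shG0s2, 587 to 714 in shRgs16 and 505 to 543 in shLacZ samples. By rank among the 43, Mcm10 was 4th in shG0s2 and 1st in shRgs16 and shLacZ livers, while Pcna was 1st in shG0s2 and 4th in shLacZ livers.

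Genes with more transcript in control livers tended to change less or to fall. Across the 43 genes, Spearman's rho between the mean shLacZ TPM and the log2 fold change was -0.67 in shG0s2 and -0.59 in shRgs16 livers. This is a description across genes, which are not independent, and both measures use the same shLacZ libraries. Mcm10, Tk1 and Gins4, 3 of the 5 most abundant genes, were those with a negative log2 fold change in both comparisons (for Gins4 not past the threshold, and a rise past it in shG0s2 livers with library size alone), whereas Rpa1 and Pcna, also among the 5, rose.

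**Figure D5:**
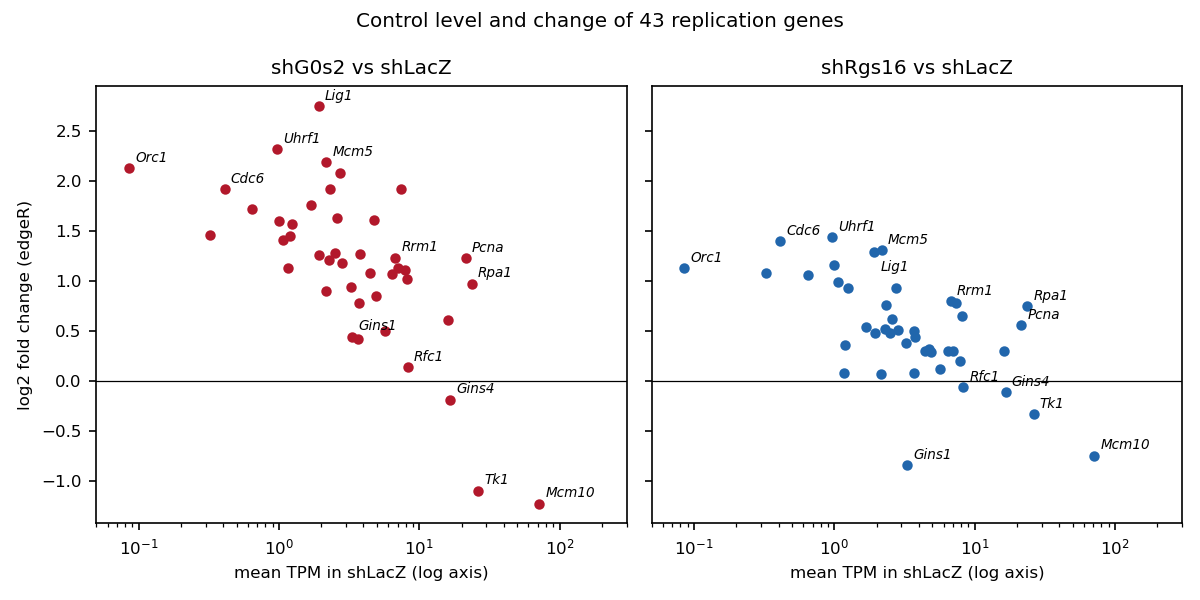
Mean TPM in shLacZ livers (x axis, log scale) against log2 fold change over shLacZ (y axis) of the 43 genes, for shG0s2 (red, left) and shRgs16 (blue, right). Points fall away to the right, to Mcm10 at 71.3 TPM, while Pcna and Rpa1 stay above zero.

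A further 57 genes of DNA replication outside the 43 were listed by role. Of the 56 tested in shG0s2 against shLacZ livers, 43 rose and 4 fell, with a median log2 fold change of 0.68. Of the 55 tested in shRgs16 against shLacZ livers, 28 rose and 6 fell, with a median of 0.36. Chtf8 was not tested, since the tables hold it in more than 1 row, and Dscc1 did not pass the filter in shRgs16 livers. Of all genes tested, 31.3% rose and 29.2% fell in shG0s2 livers, and 24.6% rose and 24.5% fell in shRgs16 livers. All 6 fork protection genes rose in both comparisons. Of 11 further polymerase and flap processing genes 6 rose and 2 fell in shG0s2 livers. In shRgs16 livers 2 of the 11 rose and 1 fell, which is no more than the share of all genes.

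The largest rises in shG0s2 livers were those of Hells, a chromatin remodeller needed for DNA methylation, at 2.83 (SE 0.165), Chtf18, a subunit of the clamp loader for sister chromatid cohesion, at 2.82 (SE 0.264), Dctd, a deaminase that leads to thymidylate, at 2.78 (SE 0.348), and Dscc1, a partner of Chtf18, at 2.56 (SE 0.508). Hells averaged 13.0 ± 1.64 CPM in shG0s2, 4.87 ± 1.45 CPM in shRgs16 and 1.84 ± 0.415 CPM in shLacZ livers, and Dscc1 0.698 ± 0.211, 0.410 ± 0.127 and 0.117 ± 0.113 CPM in the same order (SD, n = 4 each). In shRgs16 livers the largest were Chtf18 at 2.08 (SE 0.339), Dctd at 1.99 (SE 0.423), Clspn, a mediator of the replication checkpoint, at 1.82 (SE 0.283), and Ticrr, which helps fire origins, at 1.54 (SE 0.291). Dctd at 0.196 ± 0.0748 CPM and Chtf18 at 0.415 ± 0.172 CPM stood low in shLacZ livers.

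Outside the 43, Pole4, a histone-fold subunit of polymerase epsilon, fell by 0.85 (SE 0.0869) in shG0s2 and by 0.52 (SE 0.0862) in shRgs16 livers, while its catalytic partner Pole rose in both. Tk2, the mitochondrial thymidine kinase, fell by 0.30 (SE 0.0679) and 0.60 (SE 0.0751), and Rbbp4, a histone chaperone shared by several chromatin complexes, by 0.26 (SE 0.0580) and 0.24 (SE 0.0551). Rnaseh2c, a subunit of the nuclease that removes ribonucleotides from DNA, fell by 0.60 (SE 0.130) in shG0s2 livers. Orc4 and Dtymk fell in shRgs16 livers by 0.33 (SE 0.0681) and 0.43 (SE 0.0932). These falls are relative to the TMM scaling. With library size alone, 1 of the other replication genes was lower in shG0s2 and 1 in shRgs16 livers against shLacZ livers. In deposited TPM, Tk2 averaged 12.7 ± 0.889 in shG0s2 and 9.23 ± 0.484 in shLacZ livers, and Rbbp4 31.6 ± 2.14 in shG0s2 and 23.0 ± 1.55 in shLacZ livers (SD, n = 4 each), so both stood higher in shG0s2 livers on that scale. Pole4 averaged 32.4 ± 4.17 TPM in shG0s2, 34.3 ± 2.07 TPM in shRgs16 and 33.8 ± 3.86 TPM in shLacZ livers. Orc4 averaged 13.4 ± 1.65 TPM in shRgs16 and 12.6 ± 1.47 TPM in shLacZ livers. Rnaseh2c was listed at a mean of 30.7 ± 0.998 TPM in shG0s2 livers, inside the range of the shLacZ samples, 24.3 to 36.6 TPM.

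In the direct test of shG0s2 against shRgs16 livers, 21.0% of all genes tested were higher and 20.5% lower. Of the other replication genes, 31 of 56 were higher and 1, Pole4, was lower at -0.34 (SE 0.0903), with a median of 0.37. Hells at 1.42 (SE 0.194), Wdhd1, which links polymerase alpha to the helicase, at 1.12 (SE 0.133), Dtymk, the thymidylate kinase, at 1.05 (SE 0.0850) and E2f7, a repressor among the E2F factors, at 1.04 (SE 0.230) differed most. Dtymk averaged 29.8 ± 1.98 CPM in shG0s2, 14.5 ± 1.43 CPM in shRgs16 and 19.6 ± 1.75 CPM in shLacZ livers (SD, n = 4 each). With TMM scaling it was thus higher than control in shG0s2 livers, at 0.63 (SE 0.0797), and lower in shRgs16 livers. In deposited TPM it averaged 64.9 ± 6.76, 25.7 ± 2.66 and 25.6 ± 3.29 in the same order of groups. On that scale shRgs16 livers did not stand below control.

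Counts of 11 of the 43 genes could include reads of a neighbour, since they overlap a gene of at least 1 TPM in shLacZ livers on GRCm38 (GENCODE M21), in 12 of 13 pairs on the opposite strand. In shG0s2 livers Lat2 was the only partner of a gene that rose to pass the threshold upward. Rfc4 overlaps 194 bases of Eif4a2, which stood at 214 TPM in shLacZ livers and fell by 0.65 in shG0s2 livers, and Chaf1a overlaps 5245 bases of Ubxn6, which fell by 0.66. Cdt1 lies inside the longer model Gm20388 on the same strand, whose difference was 0.03 in shG0s2 livers. Lat2, which overlaps Rfc2, rose by 1.94 in shG0s2 livers but stood at 1.35 TPM in shLacZ livers, against 16.1 TPM for Rfc2.

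The authors' deposited table, made with DESeq2 per the submitters' processing notes, gave close counts for the 43 genes. By its adjusted p-values, the authors' deposited table had 39 higher and 2 lower in shG0s2 over shLacZ, with a median log2 fold change of 1.22, and 27 higher and 3 lower in shRgs16 over shLacZ, with a median of 0.50.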

How the data were processed

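Per the labels' protocols, liver RNA was extracted with Trizol, treated with DNase I, depleted of ribosomal RNA and sequenced on Illumina libraries. The tools listed in the submitters' processing notes, with no role stated, are DESeq2, SAMtools 1.9, GATK 3.8, Bowtie2 2.2.9 and fastp 0.19.5. No source used here gives the annotation or whether counting used strand. The deposited tables hold, per the file headers, estimated counts and TPM per gene and sample, and the authors' fold change, log2 fold change, p-value and adjusted p-value for each knockdown over shLacZ. The estimated counts are partly fractional in 23 of the 43 genes, as reads shared between genes would give, and were rounded. The shLacZ columns of both tables were identical (0 differences in 8 columns).

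From the rounded counts, edgeR 4.0.16 (R 4.3.3; filterByExpr, TMM, robust quasi-likelihood F test, two-sided, Benjamini-Hochberg over all genes tested, threshold 0.05) was fitted on the 8 samples of each knockdown and shLacZ, and on all 12 samples for shG0s2 against shRgs16. The procedure was tested on simulated data in which few genes changed, equally up and down. That simulation does not cover a shift of scaling between groups, such as library size alone showed here. CPM use TMM factors over the 12 samples. DESeq2 1.42.0, other scalings, filters, models, a replicate block and leaving out each sample were tried. Within groups, sample pairs differed beyond counting noise (chi-square per degree of freedom 11.7 to 45.6). The labels give no batch. The 43 genes and all lists were chosen with earlier results of these data known. Values in every sample are given for the 2 most abundant genes of each role and for the 3 largest and 3 smallest changes per comparison. Other replication genes are named where they fell, were not tested, or were among the 4 largest increases. One gene that this rule takes is not reported here. Promoters are from RefSeq (GRCm38.p6), from 250 bases before to 50 after the start, and loci from GENCODE M21. Totals of 18458222 to 27170419 counts limit the precision of the least abundant genes, such as Orc1.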

Additional observations from a re-analysis of the deposited data

Results flagged for a closer look

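In 129 sets of 4 samples (43 genes in 3 groups), 5 held 1 sample far from the other 3 relative to the range of the set, where chance alone gives about 6.45 (1 in 20). Cdc6 was at 3.02 CPM in shG0s2 replicate 1 and 2.42 to 2.51 CPM in the other shG0s2 samples. Rfc4 was at 6.25 CPM in shG0s2 replicate 4 and 4.33 to 4.55 CPM in the others. Uhrf1 was at 10.6 CPM in shG0s2 replicate 2, the shallowest library, and 14.8 to 15.3 CPM in the others. In shLacZ replicate 4, Prim2 was at 3.22 CPM, against 1.64 to 1.91 CPM in the other controls, and Pole2 at 1.28 CPM, against 0.665 to 0.754 CPM.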

How the results depend on the processing

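The counts of the 43 genes that rose or fell stayed within 1.5 times their main value in all 3 comparisons under DESeq2, relative log expression scaling, library size alone, both other filters, the other sample sets, the replicate block and the loss of any 1 sample. Scaling by library size alone moved other results. Over all genes it gave 10067 higher and 1246 lower in shG0s2 against shLacZ, 7686 and 1279 in shRgs16 against shLacZ, and 6054 and 1568 in shG0s2 against shRgs16, where TMM gave 3359 and 3281. The medians of the 43 genes became 1.72, 0.80 and 0.88 in that order of comparisons, while the medians of all genes became 0.50, 0.31 and 0.21. Of the other replication genes, 1 was lower in shG0s2 and 1 in shRgs16 against shLacZ, 43 were higher in shRgs16 against shLacZ, and 47 were higher and 0 lower in shG0s2 against shRgs16. Of the 43 genes, 37 were higher and 2 lower in shRgs16 against shLacZ, where TMM gave 29 and 3. The 37 include genes given above as not past the threshold in shRgs16 livers, some of them without this being stated there. Gins4 turned to 0.30, 0.19 and 0.11 and Rfc1 in shRgs16 to 0.25. The cause was not tested.

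Leaving out 1 sample at a time, the medians ranged over 1.20 to 1.31, 0.43 to 0.55 and 0.64 to 0.77, and 1 to 2 other replication genes were lower in shG0s2 against shRgs16. In shRgs16 against shLacZ, Cdc45 ranged over -0.067 to 0.19, Prim2 over -0.032 to 0.34 and Rfc1 over -0.11 to 0.023. Genes that lost their call or changed sign without some sample numbered 1, 14 and 5.

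With the replicate number as a block, no call among the 43 was lost in shG0s2 against shLacZ, where 39 were higher. The calls of Pola2, Rfc4 and Chaf1b were lost in shRgs16 against shLacZ, and those of Cdc6, Pole and Pold1 in shG0s2 against shRgs16. The numbers were not seen to pair the samples. Of 12 same-number pairs, 2 had a correlation over 0.1 (range -0.07 to 0.14). In 4 of the 12 pairs, the sample of the first group correlated best with its own number in the second group. Depth limits the genes at about 1 CPM or less in shLacZ, such as Orc1, Cdc6, Gins3 and Pole2.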
